A study of Mus musculus with 2 samples.

Results

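The genes described here make fatty acids from acetyl-CoA or sit beside that pathway in fat cells. They were taken by name from the array's annotation: the enzymes Acly, Acss2, Me1, Acacb, Fasn, Elovl6, Scd1 and Scd2, the transcription factor gene Mlxipl and the feeding-regulated gene Pnpla3. That gave 10 genes of 12394 with a probe set that names a single gene, read by 20 of the array's 22690 probe sets. No probe set named one of them together with another gene. The rule uses gene names and no measured value, but the members were chosen with earlier results of these data known.

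The RNA came from the epididymal white fat of male mice that all ate standard chow. The knockout mice lacked the nuclear receptor PPARβ/δ (gene Ppard), were on a mixed Sv129/C57BL/6 background and were 12 weeks old. The wild-type mice were 12 to 16 weeks old. Their sample label gives the strain 129S1/SvJae, whereas the design text calls them littermates of the knockouts, so strain and age cannot be told apart from genotype. RNA from 5 animals was pooled for each genotype and run on 1 Affymetrix array per pool, a chip on which a gene is read by one or more sets of short probes. With 1 array per genotype there is no spread between replicates, no p-value and no test of a difference. Values are GCRMA intensities on a linear scale, and a difference is the log2 value of the knockout pool minus that of the wild-type pool.

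In de novo lipogenesis, citrate exported from mitochondria is split to acetyl-CoA, acetyl-CoA is carboxylated to malonyl-CoA, and fatty acid synthase joins these units into palmitate with NADPH as the reductant. Elongases and desaturases then turn palmitate into longer and unsaturated fatty acids. In fat tissue the pathway follows carbohydrate intake, through ChREBP (the product of Mlxipl), which responds to glucose metabolites, and SREBP-1c (from Srebf1), which responds to insulin. Mouse white fat runs the pathway when carbohydrate is plentiful, and Pnpla3 (adiponutrin) is known in mouse fat for its steep dependence on feeding.

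The 10 genes did not all differ in the same direction. Pnpla3, Acacb and Mlxipl were lower in the knockout pool by more than 2-fold, and Acss2 was higher by more than 2-fold. Elovl6 and Me1 were higher by less than that, and Acly and Scd2 slightly higher. Fasn and Scd1 differed least, by 1.07-fold and 1.03-fold. The differences ran from -3.62 for Pnpla3 to 1.27 for Acss2 on the log2 scale, with a median of 0.10.

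All 10 genes had a probe set at or above an intensity of 32 (log2 of 5) in at least 1 pool, the floor used to keep a probe set. Of their 20 probe sets 18 were kept, and each gene was represented by its brightest kept probe set. At least 2-fold lower were 3 of the 10 genes, beside 9.14% of all 6533 genes kept. At least 2-fold higher was 1 of the 10, beside 13.7% of all kept genes. The median over all kept genes was -0.08, with quartiles of -0.50 and 0.42, so the members' median lay close to that of the array while their lower quartile, -1.03, lay further out than that of all kept genes. These counts describe 10 named genes on 2 arrays and are not a test.

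**Figure D1:**
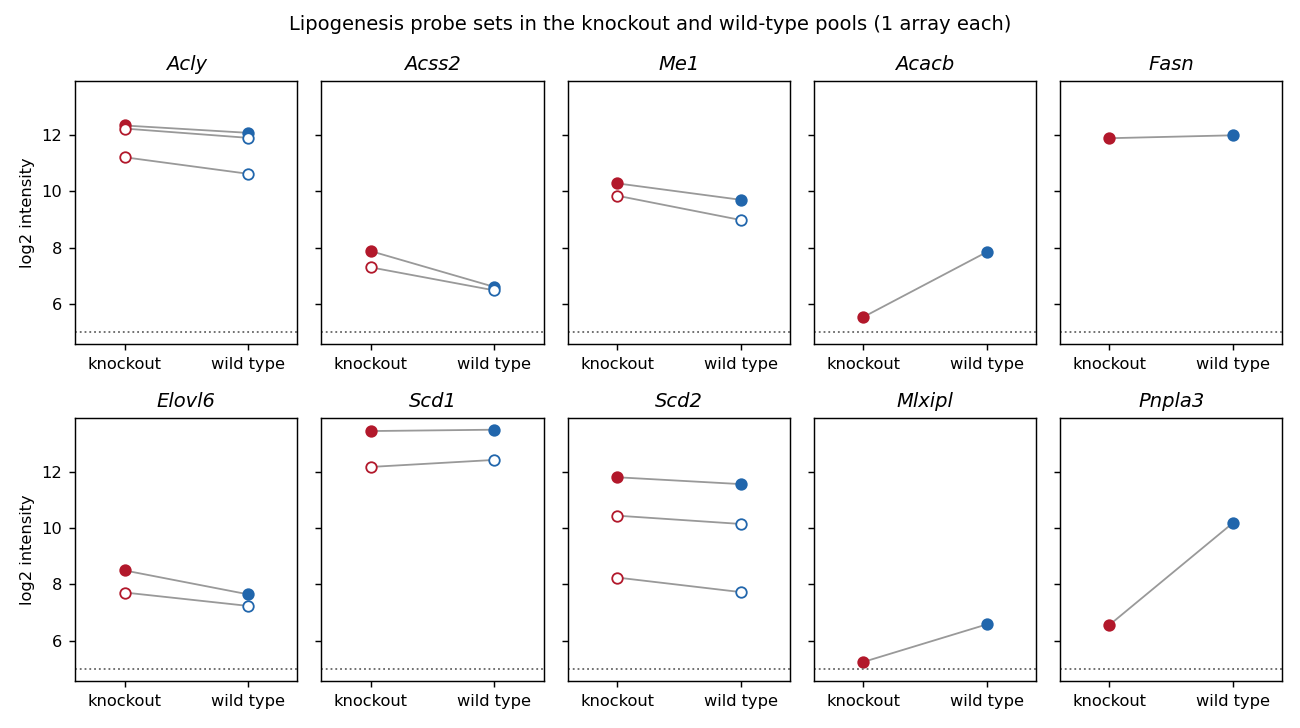
Log2 intensity of every kept probe set of the 10 genes in the knockout pool (red, left) and the wild-type pool (blue, right), 1 array each. Lines join a probe set's values, filled points mark the probe set that represents the gene, and the dotted line is the floor at log2 5. The lines of Pnpla3, Acacb and Mlxipl stand lower on the knockout side, and those of Acss2, Elovl6, Me1, Acly and Scd2 stand higher there. Those of Fasn and of the brighter Scd1 probe set are nearly level, and the other Scd1 line is slightly lower (-0.25).

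The promoters of the genes past 2-fold, with that of Fasn for contrast, are printed so that the letters at their start sites can be seen beside the differences. The sequences are those of RefSeq on GRCm38.p6, from 250 bases before to 50 bases after a start site, written 5′ to 3′ in the direction of the gene. Of the 10 genes 8 had an entry, with 10 promoters in all (Mlxipl and Me1 have more than 1); Scd1 and Scd2 had none. Capitals mark CCAAT or its reverse complement ATTGG, the E-box CACGTG, and a sterol response element written as TCACNCCAC.
Pnpla3 (chr15:84167566-84167865, plus strand): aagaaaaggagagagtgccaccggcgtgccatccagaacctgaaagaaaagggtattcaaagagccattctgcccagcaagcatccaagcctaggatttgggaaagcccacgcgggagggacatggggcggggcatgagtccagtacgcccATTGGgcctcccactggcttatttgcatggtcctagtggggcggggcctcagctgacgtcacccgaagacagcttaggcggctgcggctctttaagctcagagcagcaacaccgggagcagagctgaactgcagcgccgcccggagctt
Acacb (chr5:114165268-114165567, plus strand): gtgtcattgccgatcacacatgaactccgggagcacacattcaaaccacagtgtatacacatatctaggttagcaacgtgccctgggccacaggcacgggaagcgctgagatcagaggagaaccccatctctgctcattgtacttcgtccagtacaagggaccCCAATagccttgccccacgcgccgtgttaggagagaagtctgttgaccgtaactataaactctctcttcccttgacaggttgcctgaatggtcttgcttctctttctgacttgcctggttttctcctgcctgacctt
Mlxipl, upstream start (chr5:135089640-135089939, plus strand): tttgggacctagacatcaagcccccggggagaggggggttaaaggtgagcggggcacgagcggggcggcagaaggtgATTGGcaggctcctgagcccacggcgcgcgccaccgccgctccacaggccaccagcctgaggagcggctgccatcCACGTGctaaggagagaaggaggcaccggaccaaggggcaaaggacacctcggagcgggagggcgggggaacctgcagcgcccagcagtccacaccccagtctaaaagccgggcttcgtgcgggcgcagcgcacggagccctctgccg
Mlxipl, downstream start (chr5:135106641-135106940, plus strand): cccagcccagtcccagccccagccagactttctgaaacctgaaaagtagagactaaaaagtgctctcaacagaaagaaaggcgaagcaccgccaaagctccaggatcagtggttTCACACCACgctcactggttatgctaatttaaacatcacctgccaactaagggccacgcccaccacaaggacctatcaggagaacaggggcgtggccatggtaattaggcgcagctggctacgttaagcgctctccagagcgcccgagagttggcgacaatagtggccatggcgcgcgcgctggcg
Acss2 (chr2:155517793-155518092, plus strand): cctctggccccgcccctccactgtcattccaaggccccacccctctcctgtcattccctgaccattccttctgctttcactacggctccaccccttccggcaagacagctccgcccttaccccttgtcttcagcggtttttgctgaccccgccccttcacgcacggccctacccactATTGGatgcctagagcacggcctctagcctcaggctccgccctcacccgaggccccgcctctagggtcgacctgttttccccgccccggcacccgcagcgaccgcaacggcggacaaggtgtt
Fasn (chr11:120824498-120824797, minus strand): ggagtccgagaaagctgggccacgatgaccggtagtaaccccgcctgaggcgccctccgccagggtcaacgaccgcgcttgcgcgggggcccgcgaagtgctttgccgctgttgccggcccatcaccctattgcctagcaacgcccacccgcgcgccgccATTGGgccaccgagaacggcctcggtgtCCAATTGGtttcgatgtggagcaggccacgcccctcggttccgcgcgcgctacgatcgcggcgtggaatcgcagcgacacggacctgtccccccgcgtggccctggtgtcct

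The E-box, the core letters bound by ChREBP with its partner MLX and by USF factors, was in 1 of the 10 member promoters, 98 bases before the upstream start of Mlxipl. It was in 7.15% of all 32851 promoters of this length. The sterol response element in the single spelling searched, one form of the letters bound by SREBPs, was in 1 member promoter. It lay 136 bases before the downstream start of Mlxipl, and the same spelling was in 1.24% of all promoters. CCAAT on either strand, the letters bound by NF-Y, was in 7 of the 10 member promoters and in 37.4% of all promoters. Those 7 were 1 promoter each of Acacb, Acly, Acss2, Fasn, Me1, Mlxipl and Pnpla3. Of the 8 genes with an entry, only Elovl6 had none. In Fasn these letters occurred in both directions, and the matches that start 62 and 59 bases before the start site overlap by 2 bases. In Pnpla3 the match began 99 bases before the start, in Acacb 87 and in Acss2 73. GGGCGG, the box bound by Sp1, was in 5 of the 10 promoters and in 35.7% of all. A full carbohydrate response element, a PPAR element (AGGTCA repeated after 1 base) and an LXR element (AGGTCA repeated after 4 bases) were each found in none of the 10, and in 0.12%, 0.040% and 0.015% of all promoters. All motifs were searched on both strands, and a match describes letters in this window only. Other spellings of a site were not searched, so a motif not found does not mean that its factor has no site there. CCAAT letters were thus carried by the lower genes Pnpla3, Acacb and Mlxipl, by the higher genes Acss2, Me1 and Acly, and by Fasn.

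The largest difference was that of Pnpla3, which encodes a lipid droplet protein of the patatin-like phospholipase family. Its single probe set (1420655_at) was at 94.6 in the knockout pool and 1161 in the wild-type pool, 12.3-fold lower in the knockout. Only 1 of the 6533 kept genes was further down, Serpina1b, which was under the floor in the knockout pool at 14.0, against 419 in the wild-type pool, and so at least 13.1-fold lower. The gene next above it in the order was Tmem45b, at -3.27. The other measured genes of the same family were closer to even: Pnpla2, the adipose triglyceride lipase, was at 1602 in the knockout pool and 3406 in the wild-type pool, 2.13-fold lower. Pnpla8 differed by -0.44 and Pnpla6 by 0.01, and Pnpla7 was below the floor in both pools.

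Acacb encodes the acetyl-CoA carboxylase of the outer mitochondrial membrane, whose malonyl-CoA is known to restrain fatty acid entry into mitochondria. Its single probe set (1427052_at) was at 46.5 in the knockout pool and 230 in the wild-type pool, 4.95-fold lower in the knockout. In the order of measured differences it lay between Tspan4 (-2.31) and Smoc1 (-2.30). The cytosolic carboxylase Acaca, which supplies the malonyl-CoA for Fasn, was below the floor in both pools, at 17.1 in the knockout and 28.7 in the wild-type pool. The carboxylase step that feeds fatty acid synthase was therefore not measured above the floor by this array's probe set.

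Mlxipl was at 38.0 in the knockout pool and 95.7 in the wild-type pool, 2.52-fold lower in the knockout, at its single probe set (1419185_a_at). The knockout value is just above the floor of 32, and with 32 added to both intensities before the logarithm the difference was -0.87, short of 2-fold. In the order of all differences it lay between Pak2 and Gask1b, both at -1.33. RefSeq lists start sites of Mlxipl 17001 bases apart. The mouse gene is known to give a long form, ChREBPα, and a shorter one, ChREBPβ, from alternative first exons. The sources used here do not say which of the transcripts the probe set reads. Its partner gene Mlx differed by -0.70 and the paralog Mlxip by -0.40.

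Each of the 3 lower genes was read by 1 probe set, so no other probe set on the array bears on them. Fasn also had a single one. The other 6 genes had several kept probe sets, and in all 6 these pointed the same way, beside 72.9% of the 2137 kept genes with several. The gap between the highest and the lowest probe set of a gene had a median of 0.30 in these 6 genes, against 0.40 over all kept genes with several, and was widest in Acss2, at 0.45. Probe sets of a gene were hybridised to the same pools, so their agreement bears on the measurement and not on the animals.

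**Figure D2:**
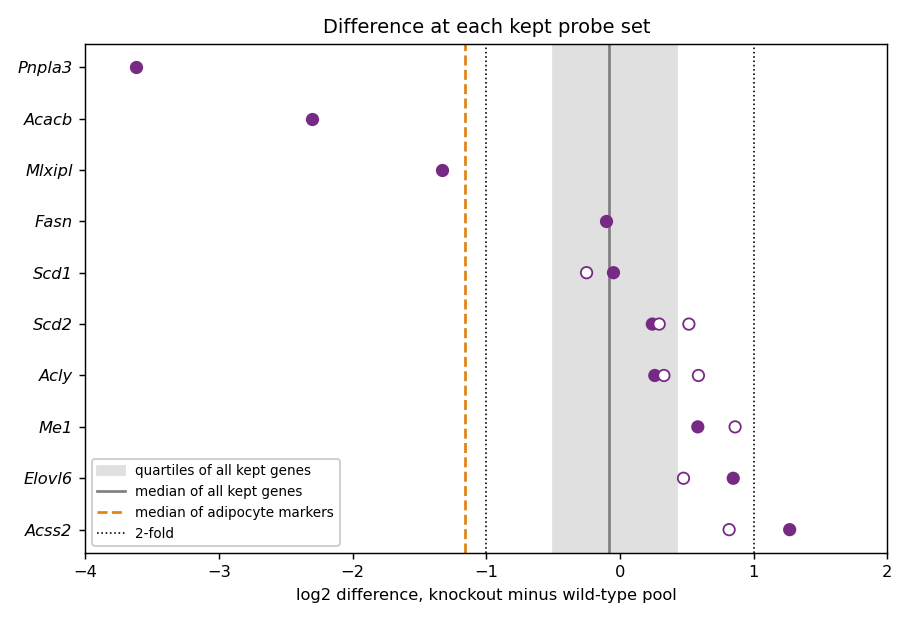
Log2 difference (knockout minus wild-type pool) at every kept probe set, by gene, from the lowest gene at the top to the highest at the bottom. Filled points represent the gene, the grey band spans the quartiles of all kept genes (-0.50 to 0.42), the dashed line is the median of the adipocyte markers (-1.16) and dotted lines mark 2-fold. Pnpla3, Acacb and Mlxipl lie left of the dashed line and the other 7 genes right of it.

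Acss2 encodes the cytosolic enzyme that makes acetyl-CoA from acetate. Its brighter probe set (1422478_a_at) was at 235 in the knockout pool and 97.5 in the wild-type pool, 2.41-fold higher in the knockout. The dimmer one (1422479_at) was at 158 in the knockout and 89.6 in the wild-type pool, 1.76-fold higher and short of 2-fold. The gene next above Acss2 in the order of differences was Mphosph8, at 1.27. The one next below was Drc3, whose place rests on a wild-type value of 14.9, under the floor, so that it was higher in the knockout pool by at least 1.13-fold. Its mitochondrial counterpart Acss1 was at 53.9 in the knockout and 36.8 in the wild-type pool, a difference of 0.55.

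Acly, the ATP citrate lyase that splits exported citrate, was higher in the knockout pool at each of its 3 kept probe sets. The probe set that represents it (1451666_at) was at 5157 in the knockout and 4304 in the wild-type pool, 1.20-fold higher. The other kept ones differed by 0.33 (1439459_x_at) and 0.59 (1425326_at) on the log2 scale. The remaining 2 Acly probe sets were below the floor in both pools. The brighter was at 14.0 in the knockout and 12.6 in the wild-type pool, and the dimmer at 6.94 in the knockout and 8.54 in the wild-type pool. Both carry the suffix for sequence shared with other transcripts, as does the kept 1439459_x_at.

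Me1, the cytosolic malic enzyme that yields NADPH, was at 1244 in the knockout pool and 830 in the wild-type pool at its brighter probe set (1430307_a_at), a log2 difference of 0.58. Its other probe set (1416632_at) was at 919 in the knockout and 505 in the wild-type pool, 1.82-fold higher. Elovl6, the elongase that takes palmitate to stearate, was at 360 in the knockout and 200.3 in the wild-type pool at the brighter of its probe sets (1417404_at), 1.80-fold higher. At the dimmer one (1417403_at) it was at 210 in the knockout and 151 in the wild-type pool, a difference of 0.48. Both genes thus had every probe set on the higher side and none past 2-fold.

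Fasn, which assembles palmitate, was at 3771 in the knockout pool and 4051 in the wild-type pool (probe set 1423828_at), a difference of -0.10, and 49.0% of kept genes lay below it. The stearoyl-CoA desaturases Scd1 and Scd2, which make oleate and palmitoleate, lie on mouse chromosome 19 in a run of 4 Scd genes with no other protein-coding gene between them. Scd1, the main form of adipocytes, was at 11083 in the knockout and 11459 in the wild-type pool at its brighter probe set (1415964_at). Its other probe set (1415965_at) was at 4587 in the knockout and 5453 in the wild-type pool, a difference of -0.25. The sign of Scd1 turned to 0.04 when differences were centred on the median of all genes, so no direction is given for it.

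Scd2 was higher in the knockout pool at all 3 probe sets. The brightest (1415822_at) was at 3560 in the knockout and 3009 in the wild-type pool, 1.18-fold higher. The next (1415823_at) was at 1385 in the knockout and 1130 in the wild-type pool. The dimmest (1415824_at) was at 303 in the knockout and 212 in the wild-type pool, 1.43-fold higher. Scd3, a further desaturase of the run, was below the floor in both pools at each of its probe sets, and Scd4 had no probe set here.

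**Figure D3:**
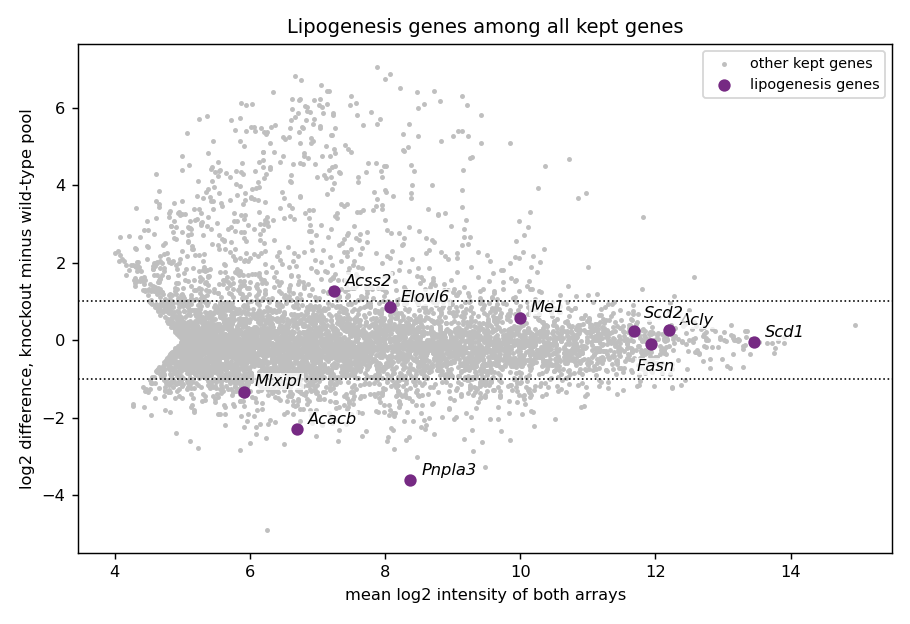
Log2 difference (knockout minus wild-type pool) against mean log2 intensity for the 6533 kept genes (grey) and the 10 lipogenesis genes (purple), with dotted lines at 2-fold. Pnpla3 (-3.62) lies near the lower edge of the cloud, and the bright genes Fasn, Scd1, Scd2 and Acly lie near 0.

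Fat pads hold several cell types, and in pooled tissue RNA fewer cells of a type and less RNA per cell cannot be told apart. Adipocyte markers were lower in the knockout pool: all 13 kept markers of 14 with a probe set were lower, 7 by at least 2-fold. They ran from Lep (-2.87) to Car3 (-0.06), with a median of -1.16. The value of Car3 turned positive when differences were centred on the median of all genes, but its other probe set was at -0.59. The lowest probe sets of Fabp4 and Cd36 were at -1.88 and -1.70. Their summed intensity was 64042 in the knockout pool and 91979 in the wild-type pool. Pnpla3, Acacb and Mlxipl lay below the marker median of -1.16, and the other 7 lipogenesis genes lay above it. The brightest adipocyte markers also lay above it: Car3, Fabp4 (-0.20), Adipoq (-0.35), Lpl (-0.36) and Cd36 (-0.71). Cidec, next in brightness, lay below it at -1.22.

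Markers of male germ cells were much higher in the knockout pool, all 17 by at least 2-fold, from Sycp3 (2.25) to Akap4 (6.32). Their summed intensity was 69116 in the knockout pool and 3954 in the wild-type pool. Epididymis markers were bright in both pools, with a summed intensity of 57141 in the knockout and 49122 in the wild-type pool; 8 of 9 were higher in the knockout, from Cuzd1 (-0.03, positive with centring or with the intensity trend removed) to Defb1 (1.57, with 0.31 at its other probe set). Germ cell and most epididymis markers were thus higher, and adipocyte markers lower, in the same pool, and their part in the differences of the lipogenesis genes was not tested.

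Of the other cell types listed, the 9 macrophage markers were all lower (median -0.78, from Cd163, at least 2.68-fold lower, to Ctss at -0.17), as were 5 of 6 endothelial markers (median -1.10, from Sox18 at -1.59 to Cldn5 at 0.01). Among 8 fibroblast and preadipocyte markers 6 were lower (median -0.56, or -0.51 with values under the floor set to it, from Lum at -1.28 to Dpp4 at 0.68). The 4 smooth muscle markers were higher, from Acta2 (0.19) to Myh11 (1.04), and the 4 mesothelial ones ran from Upk3b (-1.33) to Krt19 (0.44). Hepatocyte markers Alb, Apoa1 and Ttr were below the floor in both pools. Of 5 brown adipocyte markers Ucp1, Cidea, Dio2 and Cox7a1 were also below it, and Ppargc1a was at 28.1 in the knockout and 35.6 in the wild-type pool. The erythroid gene Alas2 was at least 4.83-fold lower in the knockout pool. Ppard itself was below the floor, at 6.27 in the knockout and 6.58 in the wild-type pool, and the sources used here do not say whether its probe set lies in the disrupted part, so the array does not check the genotype.

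Genes that supply acetyl-CoA and malonyl-CoA or regulate that step stayed within 2-fold, with a median of -0.31 over 11 kept genes, 7 lower and 4 higher. The 11 genes ran from Pcx, pyruvate carboxylase, at 2794 in the knockout and 4687 in the wild-type pool (-0.75), to Mcat. Mcat, the mitochondrial malonyl transferase, was at 45.7 in the knockout pool and at 24.6, under the floor, in the wild-type pool. The higher values of Acly and Acss2 were therefore not shared by most of this list.

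All 9 kept genes listed for NADPH supply and the pentose phosphate pathway were lower in the knockout pool, with a median of -0.74. Pgls and Rpia, however, turned positive with centring or with the intensity trend removed, and only H6pd then stayed past 2-fold. Of the same list, G6pdx and Me3 had no probe set, and G6pd2 and Me2 were below the floor in both pools. Me1 was higher. H6pd, which makes NADPH in the endoplasmic reticulum, was at 130 in the knockout and 774 in the wild-type pool, 5.94-fold lower. Idh1, cytosolic isocitrate dehydrogenase, was at 755 in the knockout and 1582 in the wild-type pool, 2.09-fold lower. Rpe, the ribulose-phosphate epimerase of the pentose phosphate pathway, was 2.06-fold lower, and -0.49 at the other of its probe sets. Rpia, at the upper end, was even (-0.01).

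Elongation and desaturation genes other than Elovl6, Scd1 and Scd2 had a median of -0.23 over 16 kept genes, 11 lower and 5 higher (9 and 7 with centring or the trend removed). Fads3, of the fatty acid desaturase family, was at 199 in the knockout and 803 in the wild-type pool, 4.04-fold lower. Elovl2, an elongase of very long polyunsaturated fatty acids that mouse testis also uses, was at 718 in the knockout and 130 in the wild-type pool, 5.53-fold higher. The germ cell markers had a median difference of 4.53 between the same pools, and their part in the value of Elovl2 was not tested. The remaining 14 were within 2-fold.

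**Figure D4:**
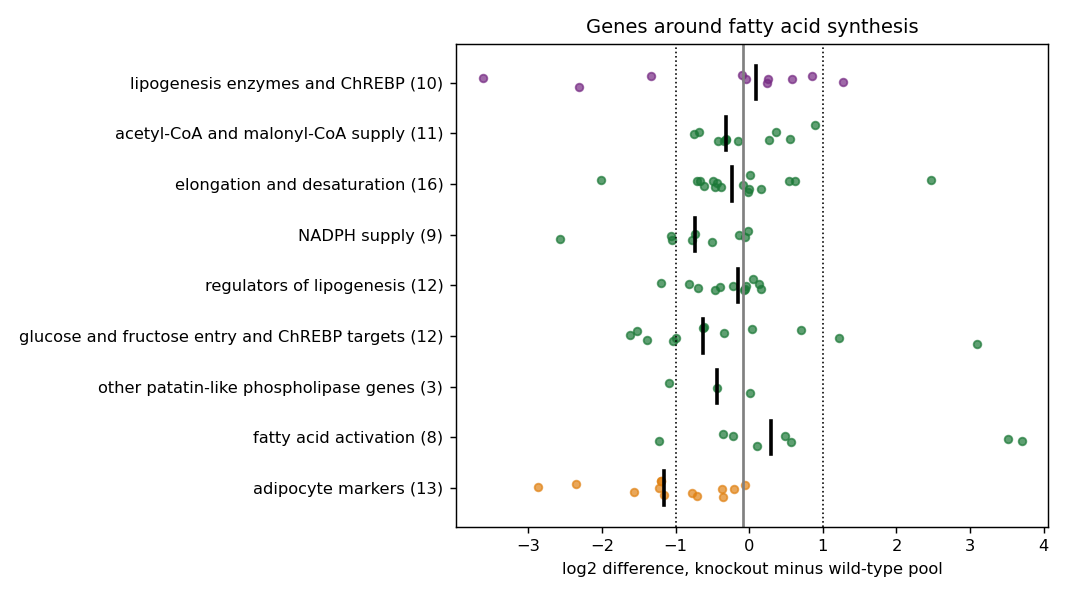
Log2 difference (knockout minus wild-type pool) of each kept gene of the lipogenesis group (purple), of 7 lists of related genes (green) and of the adipocyte markers (orange), with the number of kept genes in brackets. Black bars are medians, the grey line is the median of all kept genes (-0.08) and dotted lines mark 2-fold; points are spread vertically at random for legibility. The NADPH supply genes lie below 0 (Pgls and Rpia above it with centring), while the lipogenesis group spans both sides.

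Regulators of lipogenesis had a median of -0.15 over 12 kept genes, 9 lower and 3 higher (6 and 6 with centring or the trend removed). Srebf1, the gene of SREBP-1, was at 578 in the knockout and 798 in the wild-type pool, a difference of -0.47. Nr1h3, the nuclear receptor LXRα that is known to raise Srebf1 and Mlxipl transcription, was at 19.1, under the floor, in the knockout pool and at 43.9 in the wild-type pool, at least 1.37-fold lower in the knockout. Stk11, the kinase that activates AMPK, was at the upper end (0.16).

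Genes of glucose and fructose entry and known ChREBP targets had a median of -0.62 over 12 kept genes, 8 lower and 4 higher. Klf10, a transcription factor, was 3.06-fold lower in the knockout pool, Slc2a4, the insulin-responsive glucose transporter, 2.88-fold, Gpd1, which makes glycerol phosphate, 2.62-fold, and Slc2a1 2.05-fold. Txnip, a ChREBP target, was at 2108 in the knockout and 3241 in the wild-type pool (-0.62, with -0.99 at its other probe set). The further target Arrdc4 was at 0.04, with -0.36 at its other probe set. Bhlhe40 of the same list differed by -0.34. In the other direction, the fructose transporter Slc2a5, known from mouse testis and gut, was higher in the knockout pool by at least 4.93-fold and the aldolase Aldoc 2.33-fold higher. Pklr, Khk and Tkfc were below the floor in both pools.

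The list of fatty acid activation also holds genes of fatty acid transport and acyl-CoA handling, not only synthetases. It had a median of 0.30 over 8 kept genes, 5 higher and 3 lower. The acyl-CoA thioesterase Acot7 was at 549 in the knockout and 48.1 in the wild-type pool, 11.4-fold higher, and the acyl-CoA synthetase Acsl6 was at least 4.77-fold higher. The fatty acid transporter Slc27a1 was at least 2.03-fold lower in the knockout pool. The germ cell markers, with a median difference of 4.53, were higher in the same pool as Acot7, Acsl6 and Slc2a5, and the part of those cells was not tested.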

How the data were processed

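The deposited intensities, 1 per probe set, come from GCRMA 2.20 according to the submitters' processing notes, a method that uses probe sequence to correct background and then normalises and summarises. Their range, 1.91 to 36322, shows a linear scale; medians were 23.0 (knockout pool) and 22.3 (wild-type pool), with no centring. The sources used here do not say which arrays were normalised together. The design text names a larger array than the annotation supplied.

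Log2 was taken with Python 3.11.15 and pandas 2.3.3. Genes were named from the annotation, updated by Entrez identifier (20364 of 20393 probe sets naming 1 gene matched); 691 probe sets naming several genes and 1606 naming none were left out. A probe set was kept at an intensity of 32 or more in at least 1 pool, in place of detection calls, and the kept probe set of highest mean log2 intensity stood for its gene. Genes at least 2-fold different were counted, with no test. In folds given as "at least", a value under the floor was set to 32.

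The members, gene lists and 2-fold rule were chosen with earlier results of these data known. Named genes are the members, the genes next to each 2-fold member in the order of differences, list genes past 2-fold (up to 4 each way) and list extremes, and Ppard; further genes were chosen after their values were seen. The gene-level steps were tested on simulated data with changes put only into bright genes. That test does not cover genes as dim as Acacb, Mlxipl and Acss2. Alternatives changed the floor, the representing probe set, shared probe sets, the scaling, the log offset and the fold threshold. The number of arrays limits the precision.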

Additional observations from a re-analysis of the deposited data

How the results depend on the processing

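Over the 11 alternatives for values, Pnpla3, Acacb and Mlxipl kept their direction, as did Acss2, Me1, Elovl6, Acly and Scd2. The median of the 10 genes stayed between 0.07 and 0.23. Fasn ran from -0.10 to -0.002 and Scd1 from -0.25 to 0.04. The count of lower genes past the threshold was 3 except with 32 added to the intensities or a 3-fold threshold, where it was 2. With 32 added, 5.25% of all kept genes were at least 2-fold lower. The count of higher genes past the threshold was 1, but 0 with the lowest probe set of each gene or a 3-fold threshold and 2 at 1.5-fold. With the lowest probe set of each gene, 12.4% of all kept genes were at least 2-fold higher. Shares of all kept genes at 1.5-fold and 3-fold were not computed. The cause of these shifts was not tested beyond the construction of each alternative.

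With 32 added to both intensities, which shrinks differences of dim genes, Acacb was at -1.74, Mlxipl at -0.87 and Pnpla3 at -3.24. Nr1h3 and Slc27a1 then no longer reached 2-fold, leaving 0 regulators and 0 genes of the activation list 2-fold lower. At that setting 1 glucose and fructose gene was 2-fold higher. The same regulator count was 0 with dim values set to the floor or a floor of log2 6. With the lowest probe set of each gene Acss2 was at 0.82, Elovl6 at 0.48 and the regulator median at -0.40, and 1 acetyl-CoA supply gene was 2-fold lower. With the highest probe set Acly was at 0.59, Me1 at 0.86, Scd2 at 0.52, the acetyl-CoA supply median at -0.061 and the NADPH median at -0.49.

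With a floor of log2 6 the regulator median was -0.40 and the patatin-like median -0.77. With a floor of log2 4, or none, 1 NADPH gene was 2-fold higher, and with none the glucose and fructose median was -0.30. Centring on the median of all genes, or removing the intensity trend, left 1 NADPH gene 2-fold lower, and the trend removal left 0 patatin-like genes 2-fold lower. Adding 32 also lowered the counts over all genes, to 343 lower and 645 higher of 6533, from 597 and 893. No paired analysis was possible because each genotype has 1 pool. Each of the 3 members at least 2-fold lower rests on 1 probe set, and for dim probe sets background signal limits the precision.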
